A study of Canis lupus familiaris with 4 samples.

Results

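cfa-mir-95, cfa-mir-147 and cfa-mir-676 are 3 of the 673 miRNA rows measured by small RNA sequencing of extracellular vesicles (EVs) from a pair of canine mammary carcinoma cell lines. CHMp was derived from the primary tumor of a dog and CHMm from a metastasis of the same dog. EVs of CHMp are called primary tumor-derived EVs (pTDEs), and EVs of CHMm are called metastatic tumor-derived EVs (mTDEs). Both lines were untreated; they were grown with fetal bovine serum and moved to medium without serum before the EVs were collected by ultrafiltration and ultracentrifugation. There were 2 libraries per cell line. The study calls them biological replicates, while neither its methods nor the labels say whether they came from separate cultures, so p-values measure the spread between these libraries, which may be technical in part. The 3 miRNAs were chosen by their measured levels, since each was found in both mTDE libraries and was at or near 0 in the pTDE libraries. The difference between the cell lines is therefore a description of how they were chosen, and no test of it is read as a result for them.

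miRNAs are short RNAs that pair with messenger RNAs, mainly through a seed at their 5′ end, and lower the output of those messengers. They are cut from hairpin precursors, which can lie in introns of protein-coding genes and be made from the host transcript, or stand between genes with a promoter of their own. miR-95 has been studied as a growth-promoting miRNA in colorectal and lung cancers. miR-147 is induced in macrophages by Toll-like receptor signaling and dampens inflammatory cytokines. miR-676 has been studied little and lies in EDA, which encodes ectodysplasin, a ligand of the tumor necrosis factor family needed for hair, teeth and glands of the skin, the mammary gland included. Only small RNA was sequenced, so the transcripts of genes that hold a miRNA were not measured.

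Levels are read counts scaled to 1000000 per library (CPM), recovered from the deposited whole numbers. A single read amounted to 0.159 and 0.198 CPM for pTDE replicates 1 and 2, and to 0.289 and 0.429 CPM for mTDE replicates 1 and 2. The pTDE libraries were thus the deeper ones, with 6296519 and 5053540 reads on the rows against 3457171 and 2330384 in the mTDE libraries. For a value of 0, the upper limit was set at 3 reads, equal to 0.476 (pTDE replicate 1), 0.594 (pTDE replicate 2), 0.868 (mTDE replicate 1) and 1.29 CPM (mTDE replicate 2). In each library between 59.4% and 74.9% of the exactly recovered read numbers were even, and the forward and reverse reads of a sample had been merged, so the 95% Poisson intervals below were computed over read pairs, with 2 reads counted as 1 fragment. These intervals and limits cover counting error only, because amplified reads are not independent molecules.

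cfa-mir-95 was the most abundant of the 3. It was listed at 0 in pTDE replicate 1 and stood at 3.56 CPM (18 reads, interval 1.63 to 6.76 CPM) in pTDE replicate 2. It reached 476 CPM (interval 444 to 509 CPM) in mTDE replicate 1 and 1491 CPM (interval 1422 to 1563 CPM) in mTDE replicate 2. Both mTDE libraries lay above both pTDE libraries, and the lower mTDE value was 134-fold above the higher pTDE value. The mean was 984 ± 718 CPM in mTDEs and 1.78 ± 2.52 CPM in pTDEs (SD, n = 2), a ratio of 552. That ratio rests on pTDE replicate 2: without it, mTDEs were 2064-fold above the 3-read limit of pTDE replicate 1, and without pTDE replicate 1 the ratio was 276. It was 838 without mTDE replicate 1 and 267 without mTDE replicate 2. By level it ranked 87 of the 306 rows above 0 in mTDE replicate 1 and 67 of the 332 in mTDE replicate 2, with 0.0476% and 0.149% of the CPM of those libraries.

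cfa-mir-147 was listed at 0 in both pTDE libraries. Its mTDE levels were 20.5 CPM (71 reads, interval 14.3 to 28.5 CPM) in replicate 1 and 22.3 CPM (52 reads, interval 14.6 to 32.7 CPM) in replicate 2. The 2 mTDE values differed by less than their counting error, and their mean was 21.4 ± 1.26 CPM (SD, n = 2). Against the mean 3-read limit of the pTDE libraries, mTDEs were at least 40.0-fold higher. miR-147 was below the median level of the detected rows, which was 44.0 CPM in mTDE replicate 1 and 73.8 CPM in mTDE replicate 2, and stood above 36.9% and 32.2% of them.

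cfa-mir-676 was also listed at 0 in both pTDE libraries and had the lowest mTDE mean of the 3. It was at 6.36 CPM (22 reads, interval 3.18 to 11.4 CPM) in mTDE replicate 1 and at 21.5 CPM (50 reads, interval 13.9 to 31.7 CPM) in mTDE replicate 2. These 2 values differed by more than their counting error. The mean of 13.9 ± 10.7 CPM (SD, n = 2) put mTDEs at least 26.0-fold higher when set against the mean 3-read limit. That bound was 11.9-fold without mTDE replicate 2 and 40.1-fold without mTDE replicate 1. With a limit of 6 reads and all libraries, the bound for cfa-mir-676 was 13.0-fold. cfa-mir-676 ranked 278 of 306 rows in mTDE replicate 1 and 227 of 332 in mTDE replicate 2.

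**Figure D1:**
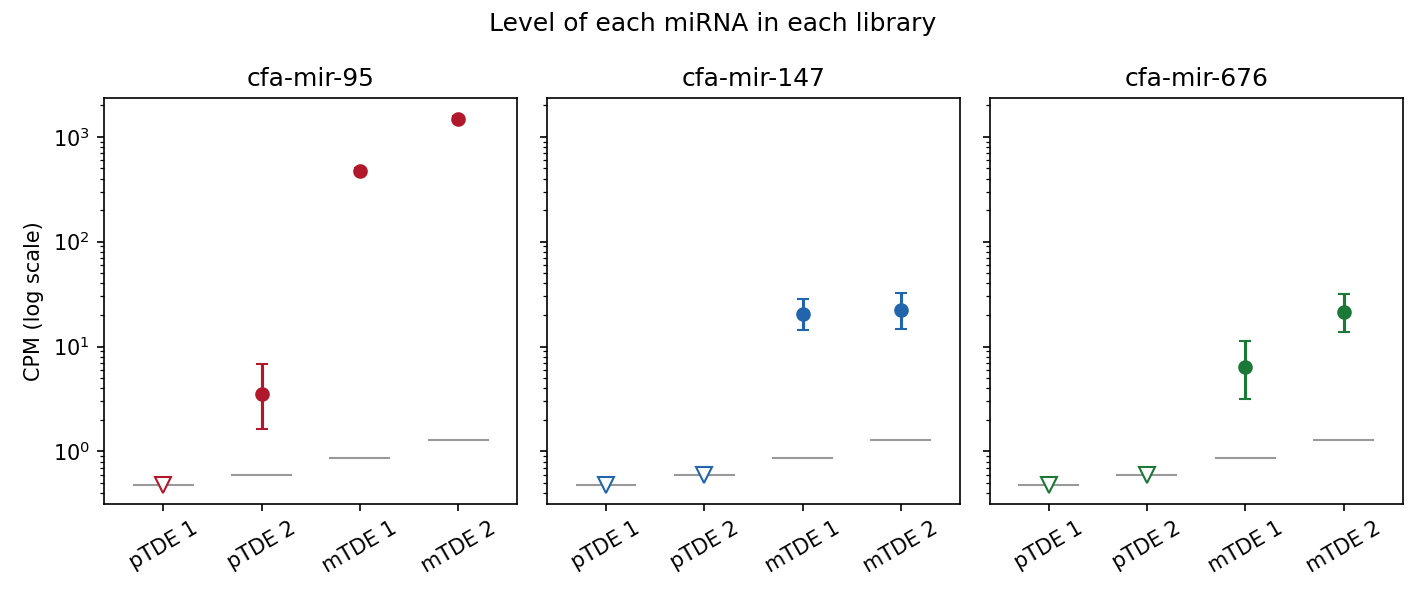
CPM of each miRNA on a log axis in the 2 pTDE and 2 mTDE libraries. Filled points are measured values with 95% Poisson intervals over read pairs, open triangles mark libraries listed at 0, drawn at the limit of 3 reads, and gray lines are that limit; every mTDE point lies above every pTDE point, and the only pTDE library with reads is replicate 2 for cfa-mir-95, at 3.56 CPM.

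The order of the 3 miRNAs differed in how firm it was. miR-95 was above the other two in both mTDE libraries, 23.2-fold and 66.8-fold above miR-147 in replicates 1 and 2 and 74.8-fold and 69.5-fold above miR-676. miR-147 was 3.23-fold above miR-676 in mTDE replicate 1, where their intervals did not overlap. In mTDE replicate 2 the ratio was 1.04, and the intervals overlapped over most of their range. These ratios are of read shares, which depend on how well each sequence is captured as well as on its amount.

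The pTDE values, which entered the choice, can be set against the read numbers of the libraries as a description. At the lower mTDE value, 2995 and 2404 reads of miR-95 would be expected in pTDE replicates 1 and 2, where 0 and 18 were counted. For miR-147, 129 and 104 reads would be expected where 0 and 0 were counted, and for miR-676 the expectation was 40.1 and 32.2 reads against 0 and 0. For miR-95 the pTDE libraries also differed from each other, since 22.4 reads would be expected in replicate 1 at the level of replicate 2. Of all rows, 14 were at 0 in pTDE replicate 1 with at least 18 reads in pTDE replicate 2, miR-95 among them. At a minimum of 10 reads, 22 rows were found in replicate 2 alone and 23 in replicate 1 alone.

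All 3 miRNAs passed the filter on low values, which asked for reads in each replicate of at least 1 cell line, and they passed it only through the mTDE libraries. On the scale of log2(CPM + 1), which understates differences of low miRNAs, the mTDE mean minus the pTDE mean was 8.63 for miR-95, 4.49 for miR-147 and 3.68 for miR-676. These differences ranked 4, 12 and 15 of the 326 rows that passed, against a median of 0.03 over these rows. limma with Benjamini-Hochberg adjustment called 6 of the 326 rows (1.84%) higher in mTDEs and 0 (0%) higher in pTDEs, with adjusted p-values under 0.05 taken as calls, against 31 and 33 at an unadjusted p-value under 0.05. With median-ratio scaling 9 rows were called higher in mTDEs and 5 higher in pTDEs. The 3 miRNAs are among the 326 rows, so counts over all rows can include them. Because they were chosen on this contrast, no call is read as a test of them.

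**Figure D2:**
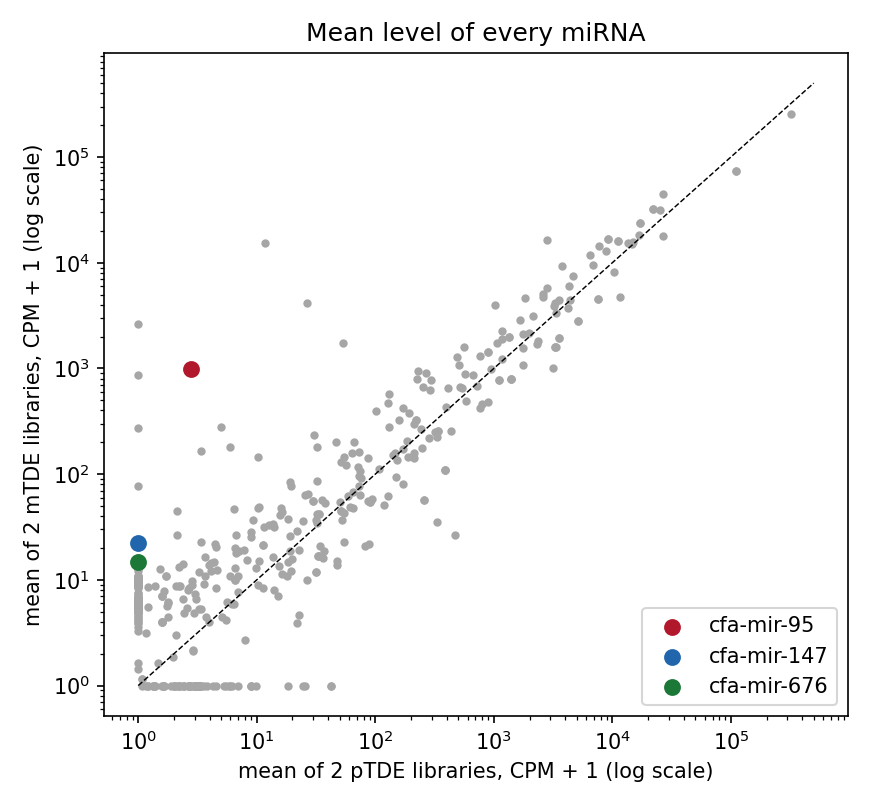
Mean CPM + 1 of the 2 mTDE libraries against that of the 2 pTDE libraries, both on log axes, for every row above 0 in any library (gray) and the 3 miRNAs (colored), with the line of equal level dashed. cfa-mir-147 and cfa-mir-676 lie on the left edge, at 0 CPM in pTDEs, and cfa-mir-95 lies near it at 1.78 CPM, with 984 CPM in mTDEs.

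Among all 673 rows, 8 (1.19%) had reads in both mTDE libraries and no more than 3 reads in either pTDE library. miR-147 and miR-676 were among them, ranked 5 and 6 by mean mTDE level. The other known miRNAs of this pattern were cfa-mir-429, cfa-mir-200b, cfa-mir-200a and cfa-mir-141, all of the miR-200 family, which maintains the epithelial state by repressing ZEB1 and ZEB2. Their mTDE means ran from 2620 ± 1235 CPM for cfa-mir-429 to 76.9 ± 1.13 CPM for cfa-mir-141 (SD, n = 2), so each stood above miR-147 and miR-676. The other 2 rows were miRNAs predicted by miRDeep2. cfa_novel_136 had no pTDE reads and reached 8.10 and 8.58 CPM in mTDEs. cfa_novel_90 was at 2.31 and 6.87 CPM in mTDEs and had 2 reads in pTDE replicate 2.

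The mature sequences of these 2 rows, as predicted from the reads of this study, are shown because the rows share the pattern of miR-147 and miR-676, with the seed, bases 2 to 8, in capitals.
cfa_novel_136: uCUCUUCAgagcguuuacuuu
cfa_novel_90: uCCUGGGUcugcugcuuccucagug
They are 21 and 25 bases long, and their seeds differ from each other.

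miR-95 falls outside the 8 rows because of its 18 reads in pTDE replicate 2. When the rows found in both mTDE libraries were ordered by their higher pTDE level, it was in place 23, next to cfa-mir-214 with the same 3.56 CPM and cfa-mir-1840 with 3.65 CPM. Those neighbors were far lower in mTDEs: cfa-mir-214, a miRNA of mesenchymal cells, was at 6.94 and 1.71 CPM, and cfa-mir-1840 was at 5.49 and 10.3 CPM. Of the 243 rows found in both mTDE libraries with any pTDE read, miR-95 ranked 2 by the ratio of the lower mTDE value to the higher pTDE value, at 134, after cfa-mir-200c at 968 and before cfa-mir-205 at 106 and cfa-mir-375 at 31.2. Since miR-95 was chosen on these same values, its rank and its gap to the neighbors were set by the choice and are a description. cfa-mir-200b and cfa-mir-429, which were of similar or higher mean level in mTDEs, had 0 reads in pTDE replicate 2, where miR-95 had 18. Other rows high in mTDEs did have reads there: 32 for cfa-mir-200c, 156 for cfa-mir-205, 34 for cfa-mir-375 and 338 for cfa-mir-203.

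The rows with the most similar values over the 4 libraries were found by Euclidean distance on log2(CPM + 1), where miRNAs are not replicates and only 4 libraries enter. For miR-95 they were cfa-mir-200b (distance 2.68), cfa-mir-429 (3.13) and cfa-mir-375 (3.18), the last a miRNA of endocrine and epithelial cells with 1.27 and 6.74 CPM in pTDEs and 349 and 210 CPM in mTDEs. For miR-147 the nearest were miR-676 (1.55), cfa_novel_136 (1.79) and the predicted cfa_novel_42 (1.88). For miR-676 they were cfa_novel_136 (1.27), miR-147 (1.55) and cfa_novel_42 (1.81). Among the known miRNAs found in both mTDE libraries, those next to miR-95 by mean mTDE level, cfa-mir-20a of the miR-17-92 cluster and cfa-mir-486-3p, were at 947 and 229 CPM in pTDEs on average. Those next to miR-147, cfa-mir-8884 and cfa-mir-503, were at 53.2 and 87.6 CPM, and those next to miR-676, cfa-mir-130b and cfa-mir-1843, at 46.2 and 3.09 CPM.

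The mTDE libraries differed from each other over many rows, and miR-95 and miR-676 shared the direction of most of them. Among the 240 rows with at least 10 reads in both mTDE libraries, 173 were higher in replicate 2, and the median log2 ratio of replicate 2 over replicate 1 was 0.62. The log2 ratio was 1.65 for miR-95, 1.75 for miR-676 and 0.12 for miR-147. Of the 240 rows, 27.1% differed by more in size than miR-95, 24.2% by more than miR-676 and 92.1% by more than miR-147. These sizes are taken about 0, where the median size was 0.88, and not about the median ratio of 0.62, which lies between the ratio of miR-147 and those of the other two.

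**Figure D3:**
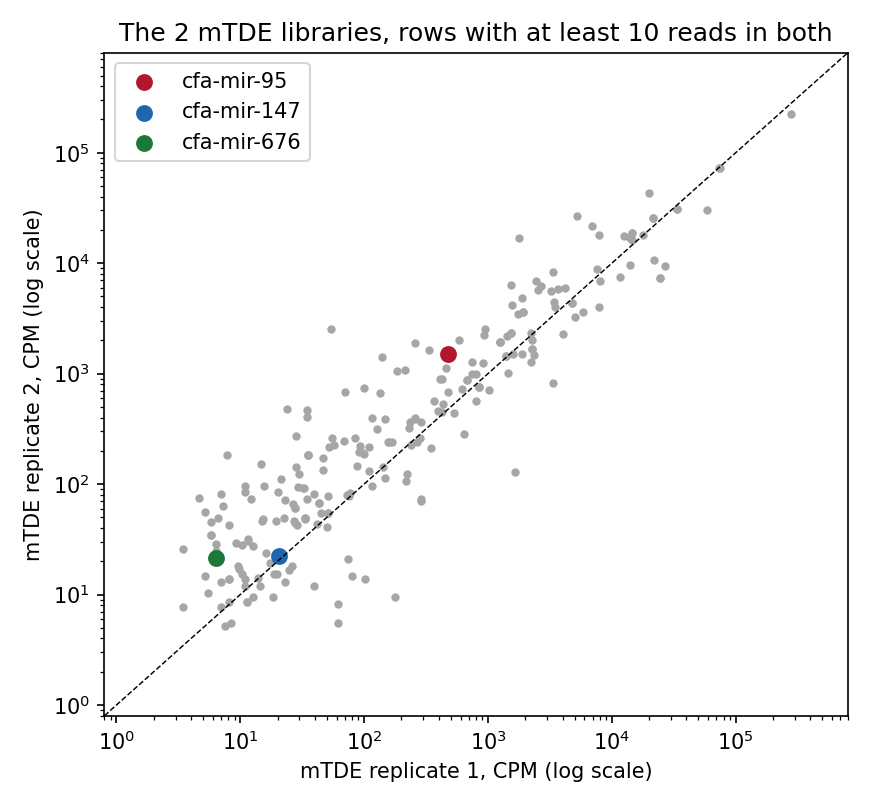
CPM in mTDE replicate 2 against mTDE replicate 1, both on log axes, for the 240 rows with at least 10 reads in both libraries, with the line of equal level dashed. cfa-mir-147 lies close to the line, while cfa-mir-95 and cfa-mir-676 lie above it, at log2 ratios of 1.65 and 1.75.

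Markers of other cell types also differed between the libraries. Summed over the miRNAs typical of blood cells (cfa-mir-451, cfa-mir-486-3p, cfa-mir-144, cfa-mir-142, cfa-mir-223 and cfa-mir-150), the level was 261 and 893 CPM in pTDE replicates 1 and 2 and 706 and 3018 CPM in mTDE replicates 1 and 2. Of the 6 rows, cfa-mir-144 was at 0 in every library, and the red blood cell miRNA cfa-mir-451 was at 123 and 465 CPM in pTDEs and 138 and 1423 CPM in mTDEs. None of the 5 measured rows was called by limma (lowest adjusted p = 0.28), although all 5 had a higher mean in mTDEs. The liver miRNA cfa-mir-122 was at 158 and 98.5 CPM in pTDEs and at 364 and 570 CPM in mTDEs. mTDE replicate 2, where miR-95 and miR-676 were higher, was thus also the library with the highest sum of blood cell miRNAs, and the part of such RNA in the levels of the 3 miRNAs was not tested. The EVs came from cultures of carcinoma lines, so these sums do not measure numbers of blood or liver cells, and the source of these miRNAs was not tested. A change in which vesicles were present and one in miRNA per vesicle cannot be told apart in such bulk libraries. The sum over 6 mesenchymal and muscle miRNAs, with genomic copies of the same values counted once, was 819 and 1294 CPM in pTDEs and 81.6 and 873 CPM in mTDEs, with 0 of their 9 rows called by limma (lowest adjusted p = 0.055). Over the 9 rows, copies included, the median log2 difference was -2.20, and 2 were positive.

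The labels of the cell lines were set against epithelial miRNAs, which mammary carcinoma cells express. The 7 rows of the miR-200 family, cfa-mir-205 and cfa-mir-203 summed to 73.9 and 104 CPM in pTDEs and to 23718 and 26413 CPM in mTDEs, so these epithelial markers were low in the EVs of CHMp. In a wider list of 11 epithelial rows, 6 were called higher in mTDEs by limma and 0 lower, which are all the rows that make up the 1.84% called among the 326 tested, and the median log2 difference was 6.28. The 6 were cfa-mir-200a, cfa-mir-200b, cfa-mir-200c, cfa-mir-141, cfa-mir-429 and cfa-mir-205, with log2 differences from 6.28 for cfa-mir-141 (standard error 0.75, limma adjusted p = 0.040) to 11.27 for cfa-mir-429 (standard error 0.81, limma adjusted p = 0.0096). cfa-mir-203, a miRNA of differentiating keratinocytes, had a log2 difference of 4.91 (limma adjusted p = 0.054) and cfa-mir-375 one of 6.02 (limma adjusted p = 0.062). The remaining 3 rows, cfa-mir-183, cfa-mir-96 and cfa-mir-182, differed by 0.91, 0.12 and 0.25 on the log2 scale and were not called. cfa-mir-141 was not called with a pseudocount of 5 CPM (limma adjusted p = 0.061) or when all rows above 0 in any library were tested (limma adjusted p = 0.12). With 1 library left out, limma lost cfa-mir-141, cfa-mir-200a and cfa-mir-200b without pTDE replicate 1 (adjusted p = 0.26, 0.16 and 0.057) and cfa-mir-141 and cfa-mir-200a without pTDE replicate 2 (0.18 and 0.11). It lost cfa-mir-200c and cfa-mir-205 without mTDE replicate 1 (adjusted p = 0.075 and 0.065) and cfa-mir-200c without mTDE replicate 2 (0.067). This list was drawn up with the results of these libraries known, so its counts are a description.

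miR-147 was also set beside other miRNAs that respond to inflammatory signals. Of 12 such rows, which include genomic copies of miR-9 and miR-125b that share reads, 11 were tested, and limma called 0 of them higher and 0 lower in mTDEs (lowest adjusted p = 0.20). Their median log2 difference was -0.74, against 0.03 over all rows tested, and 4 of the 11 were positive. cfa-mir-155, an inducer of inflammatory responses in leukocytes, was at 9027 and 14316 CPM in pTDEs and at 3708 and 5803 CPM in mTDEs, a log2 difference of -1.29. cfa-mir-146a, which dampens Toll-like receptor signaling, was at 29.1 and 44.3 CPM in pTDEs and at 20.2 and 84.9 CPM in mTDEs. The 2 cell lines overlapped for cfa-mir-146a, and for cfa-mir-155 the pTDE values lay above the mTDE values. The direction of miR-147 was fixed by how it was chosen, so it is not compared with theirs. cfa-mir-223, a miRNA of myeloid cells, was at 12.4 and 39.6 CPM in pTDEs and at 50.6 and 78.1 CPM in mTDEs (log2 difference 1.46, limma adjusted p = 0.43).

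Gene context was taken from the RefSeq annotation of the dog assembly UU_Cfam_GSD_1.0, which gives the span of each gene but not its exons and introns in the table used here. The authors used CanFam3.1, so no coordinates are printed. MIR95 lies on chromosome 3. MIR676 lies on chromosome X within the span of EDA, between FAM155B and AWAT2, which encodes a wax ester synthase of the skin. MIR147 lies on chromosome 30 in no annotated gene span, between SPATA5L1 and SLC30A4, which encodes a zinc transporter of mammary epithelium. The 3 miRNAs therefore lie on 3 chromosomes.

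The miRNA genes beside the 3 were taken as the nearest 3 rows of the table on each side, where the chromosome held as many. Next to miR-95 on chromosome 3, cfa-mir-184 was at 25.4 and 355 CPM in pTDEs and at 69.4 and 683 CPM in mTDEs, cfa-mir-574 at 576 and 858 CPM against 804 and 562 CPM, and cfa-mir-218-1 at 205.3 and 428.8 CPM against 34.4 and 469 CPM. In each of these 3 rows the cell lines overlapped. cfa-mir-8900, cfa-mir-8898 and cfa-mir-8899, the other near rows, were at 0 in every library. Next to miR-147 on chromosome 30, cfa-mir-8792 and cfa-mir-8791a were at 0 in every library, cfa-mir-628 had reads only in pTDE replicate 1 (4.45 CPM), and cfa-mir-190a was at 5.08 and 1.19 CPM in pTDEs and at 0 and 22.3 CPM in mTDEs. Next to miR-676 on chromosome X, cfa-mir-421 was at 20.8 and 9.10 CPM in pTDEs and at 79.8 and 14.6 CPM in mTDEs, and cfa-mir-374b was at 239 and 339 CPM against 185 and 1067 CPM. cfa-mir-1468 was at 3.49 and 14.1 CPM against 0 and 24.0 CPM, and cfa-mir-8834a-2 and cfa-mir-545 were at 0 throughout. Of the 16 neighboring rows, cfa-mir-223 included, 8 were tested and limma called 0 of them in either direction (lowest adjusted p = 0.43).

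The other miRNAs of the same chromosomes were compared in the same way. On chromosome 3, 8 other rows were tested, among them the genomic copies cfa-mir-9-2 and cfa-mir-9-3 with identical values. The 8 rows had a median log2 difference of -0.79 and a range from -1.23 to 1.55. The highest of these was cfa-mir-1839, at 65.9 and 65.5 CPM in pTDEs and 160 and 238 CPM in mTDEs (limma adjusted p = 0.26). On chromosome X, 26 of 60 other rows were tested, with a median of 0.09 and 15 of the 26 positive. They ranged from cfa-mir-450b at the lowest, with a difference of -3.75 (limma adjusted p = 0.17), up to cfa-mir-505 at the highest, which was at 6.04 and 10.5 CPM in pTDEs and 28.9 and 42.5 CPM in mTDEs (limma adjusted p = 0.29). On chromosome 30 only cfa-mir-190a could be tested, with a difference of 0.40 (limma adjusted p = 0.91). limma called none of these rows in either direction.

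**Figure D4:**
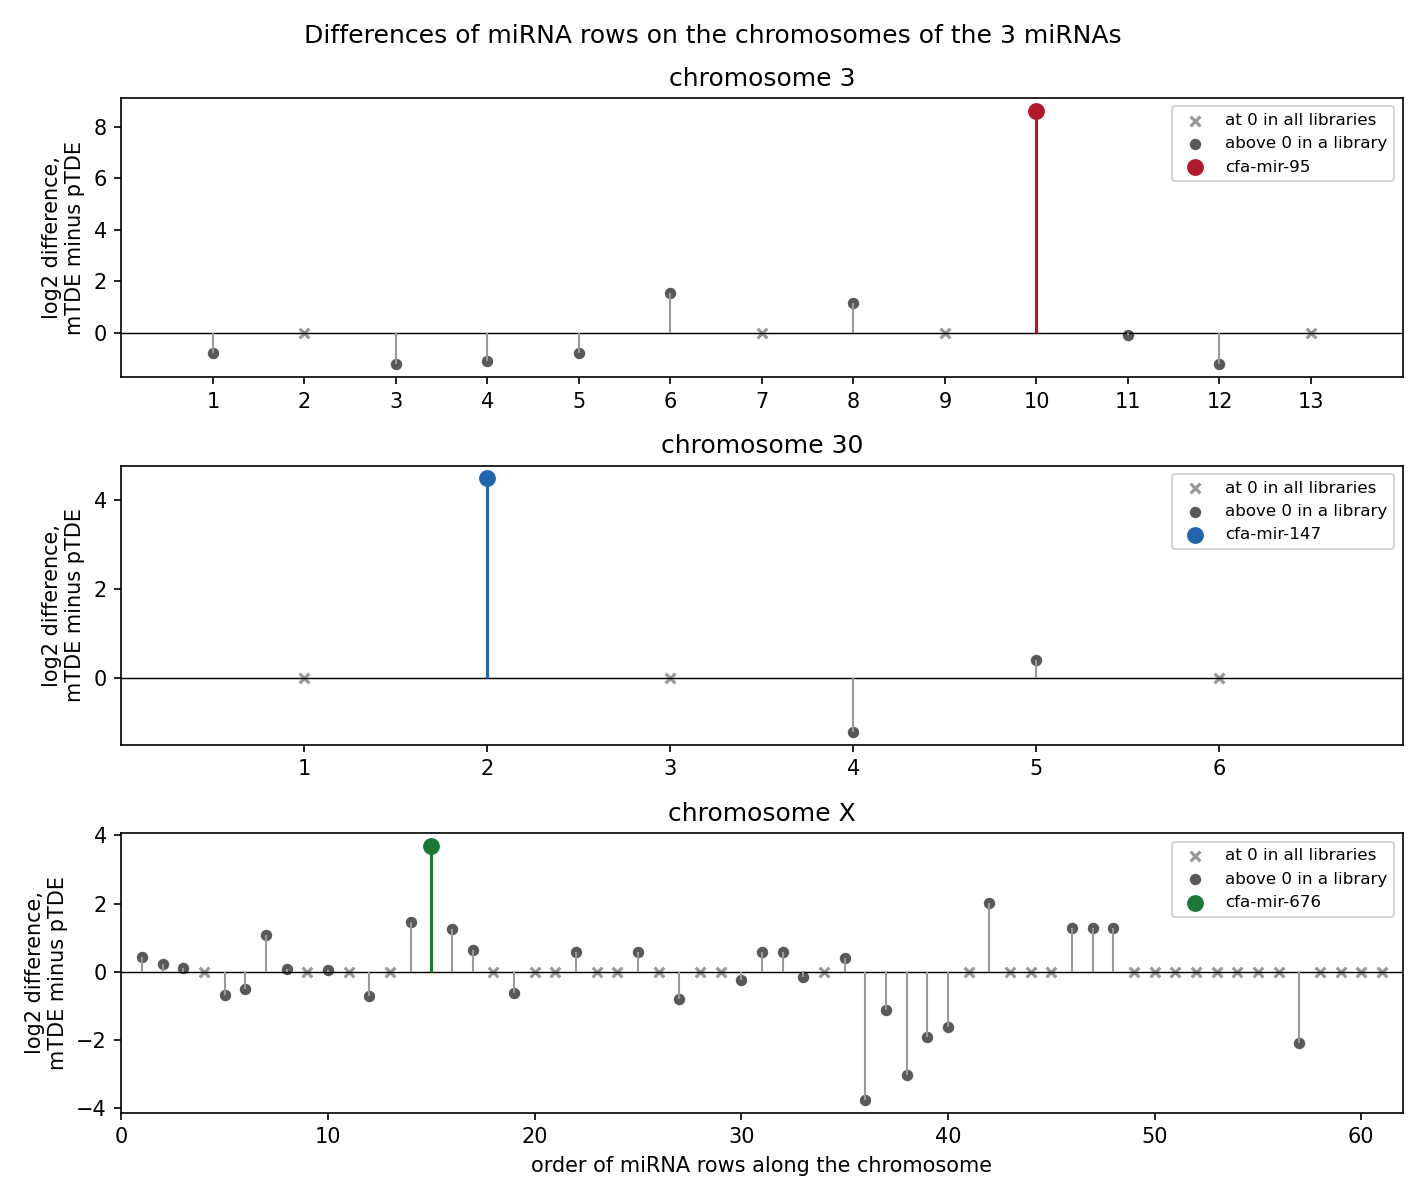
Difference of mean log2(CPM + 1), mTDEs minus pTDEs, for the known miRNA rows of chromosomes 3, 30 and X in their order along the chromosome, with the 3 miRNAs colored and rows at 0 in all libraries as crosses. The 3 miRNAs, chosen on this difference, stand at 8.63, 4.49 and 3.68, and the lowest other row, cfa-mir-450b, at -3.75.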

How the data were processed

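The authors trimmed adapters with cutadapt, kept reads of 22 to 30 bases, merged both read directions per sample, and quantified annotated miRNAs and predicted ones using miRDeep2 and CanFam3.1. Versions are not given in the sources used here. What the authors deposited for each library is handled as a score, since the values, named CPM in the study, are all whole and spaced unevenly at the low end. The deposited edgeR columns of the authors' comparison (log2 fold change and log2 CPM, a likelihood ratio score, p-values with false discovery rates) were not used.

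CPM were recovered as 2 to the power (value/s), minus 1, with s set per library so that CPM total 1000000. The worth of 1 read is the largest step of which all values under 20 CPM are whole multiples within rounding; 100% of them were. limma 3.58.1 in R 4.3.3 was fitted to log2(CPM + 1) with a mean-variance trend (prior degrees of freedom 2.4) and Benjamini-Hochberg adjustment over 326 rows. Python 3.11.15, numpy 2.4.6, pandas 2.3.3 and scipy 1.17.1 were used otherwise. Both steps were tested on simulated data. The members, lists and tests were chosen with earlier results of these data known. The text names the members, rows sharing their detection pattern, the nearest rows by values, by level and by gene order, and list rows; cfa-mir-214, cfa-mir-1840, cfa-mir-1839, cfa-mir-450b, cfa-mir-505, cfa-mir-451 and cfa-mir-122 were added after their values were seen, as were unadjusted examples of the lists. In the RefSeq annotation, gene names matched for 480 of the 508 annotated rows, the members included. Seed relatives of the members were not analysed here, and the genes around MIR95 are not reported here.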

Additional observations from a re-analysis of the deposited data

How the results depend on the processing

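The direction of the 3 miRNAs was fixed by how they were chosen, so only sizes are compared here. When the deposited numbers were used as CPM without conversion, the ratio of 552 for miR-95 was 8.18 and the bounds of 40.0 and 26.0 for miR-147 and miR-676 were 6.71 and 5.44. The bound of miR-147 was 34.5 with median-ratio size factors and 20.02 with a limit of 6 reads, and that of miR-676 was 19.9 and 13.0. The limit does not enter the ratio of miR-95. With 1 library left out, the ratio of miR-95 ranged from 267 to 838, with a lower bound of 2064 in place of a ratio without pTDE replicate 2, and the bound of miR-147 ranged from 36.1 to 44.97. The 8 rows with the detection pattern became 25 when up to 20 reads in pTDEs were allowed and ranged from 12 to 49 with 1 library left out (16 without pTDE replicate 1, 43 and 49 without mTDE replicate 1 and 2).

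The 6 limma calls higher in mTDEs were 11 under each of 3 settings (0.1 CPM as pseudocount, no conversion, limma voom), and ranged from 4 to 49 with 1 library left out (46 and 49 without mTDE replicate 1 and 2). The 0 calls higher in pTDEs (33 at an unadjusted p-value under 0.05) were 28 with 0.1 CPM as pseudocount, 39 without conversion, 5 by median-ratio scaling, 4 when the trend was dropped and 5 with voom, and ranged from 0 to 57 with 1 library left out (53 and 57 without pTDE replicate 1 and 2, 7 without mTDE replicate 2). The lone library is then assumed to vary like the others. Median-ratio scaling moved the median log2 difference from 0.03 to -0.22. The cause was not tested. The replicate number was used as a replicate block in 1 fit, which gave 7 calls higher and 0 lower in mTDEs, with cfa-mir-141 not called (limma adjusted p = 0.056) and cfa-mir-203 called. Like the other counts over all rows, the 7 can include the 3 miRNAs, for which no call is read as a test. Same-numbered libraries shared only a number, and their deviations correlated with r = 0.15 over 326 rows in 2 pairs. Over 38 named rows, 456 values under the alternatives held 11 lost calls, 17 gained calls and 30 changes of sign, none of them of a called row.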
